A study of Mus musculus with 8 samples.

Results

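The platelet-derived growth factor (PDGF) genes were followed in the mouse duodenum with both copies of Zeb2 and with 1 copy knocked out. They were 6 of the 54532 genes in the deposited table, taken by gene symbol: the receptors Pdgfra and Pdgfrb and the ligands Pdgfa, Pdgfb, Pdgfc and Pdgfd. The family was selected on its FPKM in the WT against Zeb2+/- comparison. The members' values in that comparison are therefore given as a description, with no test.

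PDGF signalling runs from cells that secrete a ligand to mesenchymal cells that carry a receptor tyrosine kinase. Ligand dimers bring receptor chains together, the chains phosphorylate each other, and the docking proteins they recruit pass the signal to the Ras, phosphatidylinositol 3-kinase and phospholipase C pathways. In the gut, epithelial PDGF-A is known to act on PDGFR-alpha cells beneath the epithelium, which form the clusters that raise villi in the embryo and later make bone morphogenetic proteins (BMPs). Endothelial PDGF-B is known to recruit the PDGFR-beta pericytes that coat small vessels.

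The study used a global heterozygous knockout of Zeb2 as a model of the growth retardation in Mowat-Wilson syndrome, which people develop after loss of a single ZEB2 copy. Zeb2 encodes a zinc-finger protein that binds DNA and SMAD proteins, mostly as a repressor. RNA was taken from the duodenum of WT mice (Zeb2+/+) and of Zeb2+/- mice, with 4 libraries of each genotype, numbered 1 to 4 as in the labels. The labels give neither age, sex, strain, exon deleted nor the animal behind a library. The samples were duodenal tissue, not sorted cells, so fewer cells of a type and less RNA per cell cannot be told apart in any value below.

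Levels are the authors' deposited FPKM, which divide the fragments of a gene by its length and by a library total. Levels of different genes can therefore be set side by side. The libraries held 13579347 to 17137417 reads in genes, and correlations of log2(FPKM + 1) were 0.972 to 0.981 among WT and 0.902 to 0.971 among Zeb2+/- libraries. Zeb2+/- 1 had the highest summed level of smooth muscle markers (972.5 FPKM, against at most 400.8 in WT). Pancreatic enzyme genes summed to 148.4 to 2265 FPKM in WT and to at most 5.97 FPKM in Zeb2+/-. Zeb2 itself stood at 31.9% of the WT level (0.943 ± 0.192 against 0.301 ± 0.146 FPKM; SD, n = 4; exact two-sided permutation p = 0.0286, the smallest that 4 against 4 allows).

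Promoter sequence is shown for 3 members, because ZEB proteins bind DNA through their zinc fingers and these members cover a receptor and a ligand that were lower in Zeb2+/- and a ligand that was not. Each line holds the 250 bases before the RefSeq start of the gene, 5′ to 3′ on the gene's strand, from RefSeq on GRCm38.p6. Pdgfra lies at chr5:75152001-75152250, Pdgfd at chr9:6168236-6168485 and Pdgfc at chr3:81036166-81036415, all on the plus strand. Capitals mark CACCT or its reverse complement AGGTG, the short core that ZEB zinc fingers recognise.

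Pdgfra promoter: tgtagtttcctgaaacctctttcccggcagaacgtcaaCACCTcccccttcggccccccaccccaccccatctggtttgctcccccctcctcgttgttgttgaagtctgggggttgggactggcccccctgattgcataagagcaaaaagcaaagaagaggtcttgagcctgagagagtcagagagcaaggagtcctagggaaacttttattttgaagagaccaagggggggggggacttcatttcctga

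Pdgfd promoter: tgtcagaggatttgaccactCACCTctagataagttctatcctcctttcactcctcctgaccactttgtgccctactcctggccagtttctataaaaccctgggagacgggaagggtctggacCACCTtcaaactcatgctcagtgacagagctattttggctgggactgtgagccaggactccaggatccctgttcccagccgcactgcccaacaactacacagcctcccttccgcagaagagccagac

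Pdgfc promoter: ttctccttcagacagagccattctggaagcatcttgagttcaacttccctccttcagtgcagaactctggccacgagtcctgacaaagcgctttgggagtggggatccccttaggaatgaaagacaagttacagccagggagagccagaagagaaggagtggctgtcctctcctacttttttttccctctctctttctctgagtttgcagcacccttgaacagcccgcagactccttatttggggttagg

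CACCT stood at 1 place in the Pdgfra window, at 2 places in the Pdgfd window and nowhere in the Pdgfc window, with both strands searched. Of the Pdgfa starts, the downstream one (the lower coordinate, as the gene is on the minus strand) had 1 match and the upstream one had 0. No window of Pdgfrb or Pdgfb was examined on its own, so nothing is said of their promoters. The core is common: 15100 of 32851 promoter windows of the same length (46%) hold it. The longer CACCTG, or CAGGTG on the other strand, contains the core and was in 5657 windows (17.2%) and in none of these members' windows. The motif was chosen with the expression values known, and a match says only that the letters are there. GC content was 54.4% for Pdgfra, 53.6% for Pdgfd and 50.8% for Pdgfc, against a median of 52.4% over all windows, and was higher at both Pdgfa starts (66.4% and 72.4%).

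In WT duodenum Pdgfa was the most abundant member, the receptors followed at nearly equal levels, and the other ligands came last. WT means were 12.4 FPKM for Pdgfa, 4.12 for Pdgfrb, 4.05 for Pdgfra, 1.91 for Pdgfc, 1.62 for Pdgfb and 0.701 for Pdgfd. The ranges of Pdgfrb and Pdgfra overlapped, as did those of Pdgfc and Pdgfb, while the other neighbours in that order were apart. In Zeb2+/- the order changed. Pdgfa stayed first at 19.2 FPKM and Pdgfd last at 0.131, and between them Pdgfc (1.99), Pdgfra (1.38), Pdgfb (0.925) and Pdgfrb (0.784) followed each other with overlapping ranges. Both receptors thus stood above Pdgfc and Pdgfb in the WT means and no longer above Pdgfc in the Zeb2+/- means.

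Pdgfra (ENSMUSG00000029231; GRCm38 chromosome 5, 75152292 to 75198215, plus strand) encodes PDGFR-alpha, which binds the A, B and C chains. It was at 5.58, 3.82, 3.13 and 3.66 FPKM in WT libraries 1 to 4 and at 2.53, 0.689, 1.18 and 1.14 FPKM in Zeb2+/- libraries 1 to 4. Library 1 was the highest of both genotypes, and no Zeb2+/- library reached the lowest WT library. The means of 4.05 ± 1.06 and 1.38 ± 0.794 FPKM (SD, n = 4 each) put Zeb2+/- at 34.2% of WT. On the log2(FPKM + 1) scale, which understates changes of low genes, the fold change was -1.11 (SE 0.23). Behind these levels were 409 to 843 reads per WT library and 78 to 471 per Zeb2+/- library. Rescaled to TPM, a unit in which every library has the same total, Zeb2+/- 1 (7.12) lay just above the lowest WT library (6.90), so that the genotypes overlapped on that scale.

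Pdgfrb (ENSMUSG00000024620; chromosome 18, 61045150 to 61085061, plus strand) encodes PDGFR-beta, the receptor of the B and D chains and the classic marker of pericytes. Its levels were 4.64, 4.14, 4.02 and 3.70 FPKM in WT and 1.08, 0.711, 0.520 and 0.826 FPKM in Zeb2+/-. The WT libraries were close together, the Zeb2+/- libraries less so for their level, and the highest Zeb2+/- library stayed well under the lowest WT library. The mean went from 4.12 ± 0.388 to 0.784 ± 0.234 FPKM, 19.0% of WT, a log2 fold change of -1.53 (SE 0.13). The reads were 287 to 383 in WT and 34 to 110 in Zeb2+/- libraries. The receptors were at similar levels in WT, with a ratio of Pdgfra to Pdgfrb of 0.973 ± 0.176. In Zeb2+/- the ratio was 1.74 ± 0.674, with 0.969 in library 2 inside the WT range of 0.779 to 1.203.

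Pdgfa (ENSMUSG00000025856; chromosome 5, 138976014 to 138997370, minus strand) encodes the A chain, made in the gut mainly by epithelium. It was the member that was higher in Zeb2+/-. WT libraries had 10.5, 14.4, 12.4 and 12.4 FPKM and Zeb2+/- libraries 17.2, 15.9, 27.4 and 16.3 FPKM. In FPKM every Zeb2+/- library lay above every WT library, and Zeb2+/- 3 lay far above the rest of its group. The means were 12.4 ± 1.62 and 19.2 ± 5.49 FPKM, with Zeb2+/- at 154.8% of WT and a log2 fold change of 0.57 (SE 0.18). Without Zeb2+/- 3 the log2 fold change was 0.39, and without Zeb2+/- 1 and 3 it was 0.36. In TPM the genotypes overlapped, since WT 2 (36.3) was above Zeb2+/- 2 (32.9). Zeb2+/- 3 (49.7) no longer stood apart on that scale, as Zeb2+/- 1 was at 48.4. An antisense transcript, 6330403L08Rik, overlaps Pdgfa and was at 0.859 FPKM in WT and 0.927 in Zeb2+/-. No source used here gives the strand setting of the counting, so reads of both genes may not be fully separated.

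Pdgfb (ENSMUSG00000000489; chromosome 15, 79995874 to 80014977, minus strand) encodes the B chain, which binds both receptors and is made by endothelium and platelets. WT libraries were within a narrow range, at 1.59, 1.55, 1.81 and 1.52 FPKM. The Zeb2+/- libraries were spread out, at 1.45, 0.468, 0.624 and 1.16 FPKM. Zeb2+/- 1 was close to WT and Zeb2+/- 2 was the farthest from it. The means were 1.62 ± 0.129 and 0.925 ± 0.458 FPKM, 57.2% of WT, a log2 fold change of -0.47 (SE 0.18). In TPM Zeb2+/- 1 (4.08) lay inside the WT range, and the genotypes overlapped.

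Pdgfc (ENSMUSG00000028019; chromosome 3, 81036416 to 81214040, plus strand) encodes the C chain, secreted with a CUB domain that proteases such as tissue plasminogen activator remove before it binds PDGFR-alpha. Its levels were 1.58, 1.75, 2.47 and 1.83 FPKM in WT and 0.824, 2.82, 2.22 and 2.11 FPKM in Zeb2+/-. Zeb2+/- 1 was the lowest library and Zeb2+/- 2 the highest, with all WT libraries between them. The means were 1.91 ± 0.391 and 1.99 ± 0.839 FPKM, and the log2 fold change was 0.00 (SE 0.22). Over 19 alternative analyses it ran from -0.13 to 0.26, below 0 in 10 and above 0 in 6.

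Pdgfd (ENSMUSG00000032006; chromosome 9, 6168584 to 6378850, plus strand) encodes the D chain, which also carries a CUB domain and activates PDGFR-beta. WT libraries had 0.547, 0.492, 0.973 and 0.793 FPKM and Zeb2+/- libraries 0.290, 0.0281, 0.106 and 0.0989 FPKM. All Zeb2+/- libraries were below all WT libraries, and the highest of them was again Zeb2+/- 1. Zeb2+/- was at 18.7% of WT (0.701 ± 0.223 against 0.131 ± 0.112 FPKM), with a log2 fold change of -0.59 (SE 0.13). This rested on 25 to 40 reads per WT library and on 17, 1, 4 and 4 reads in the Zeb2+/- libraries, 127 against 26 in all.

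**Figure D1:**
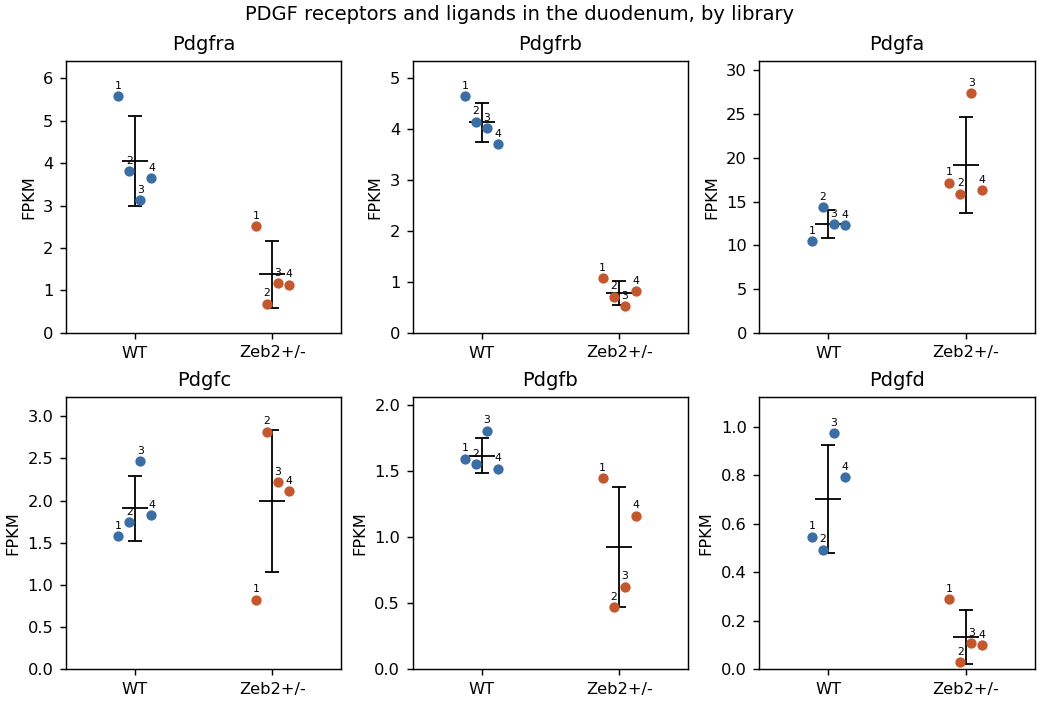
Deposited FPKM of the 6 PDGF genes in each library (points, numbered by library), with the mean and SD of each genotype (bars, n = 4). Pdgfra, Pdgfrb and Pdgfd are lower in all Zeb2+/- libraries, Pdgfa is higher, Pdgfb is lower with a wide spread, and Pdgfc lies on both sides of WT.

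Levels were compared across all genes with limma on log2(FPKM + 1), and a gene was called changed at a Benjamini-Hochberg adjusted p below 0.05. Of the 12190 genes with a mean of at least 1 FPKM, 395 were called (3.24%), 338 lower (2.77%) and 57 higher (0.468%) in Zeb2+/-. The genotypes did not overlap, with Zeb2+/- lower, in 837 genes (6.87%) and, with Zeb2+/- higher, in 932 genes (7.65%). Of the 6 members, 5 reached the minimum and Pdgfd did not. Of these 5, Pdgfra, Pdgfrb and Pdgfb were lower without overlap and Pdgfa was higher without overlap. Since the contrast chose the family, nothing is read from that count. How many members passed the threshold is given in the closing section as a description only. The median log2 fold change of the 5 was -0.47, beside 0.00 over all tested genes.

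The size of the members' differences varied with the analysis. Over the alternatives the log2 fold change was -2.43 to -0.66 for Pdgfrb, -1.65 to -0.50 for Pdgfra, -2.56 to -0.15 for Pdgfd, -0.93 to -0.16 for Pdgfb and 0.36 to 0.64 for Pdgfa. Part of that range comes from the pseudocount, which sets how far low values are compressed. Genes within 20% of a member's length had a median log2 fold change of -0.10 for Pdgfra, -0.02 for Pdgfrb, 0.05 for Pdgfa, 0.01 for Pdgfb, -0.01 for Pdgfc and 0.05 for Pdgfd.

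Summed over the family, receptors were lower and, in FPKM, ligands higher in Zeb2+/-. The receptor sum was 10.2, 7.96, 7.15 and 7.36 FPKM in WT and 3.61, 1.40, 1.70 and 1.96 FPKM in Zeb2+/-. The ligand sum was 14.2, 18.2, 17.6 and 16.5 FPKM in WT and 19.7, 19.2, 30.4 and 19.7 FPKM in Zeb2+/-. In FPKM neither sum overlapped between genotypes. In TPM the receptor sum did not overlap either (15.8 to 26.3 in WT, 2.89 to 10.2 in Zeb2+/-), while the ligand sum did (36.5 to 45.8 and 39.7 to 55.6). Ligand transcripts per receptor transcript, on this scale, were 1.39, 2.29, 2.47 and 2.24 in WT and 5.47, 13.7, 17.9 and 10.1 in Zeb2+/-, means of 2.10 ± 0.482 and 11.8 ± 5.29. The mean ratio in Zeb2+/- was 5.62 times that in WT, lowest in Zeb2+/- 1 and highest in Zeb2+/- 3. Pdgfa made up 74.5 ± 3.69% of the ligand sum in WT and 85.7 ± 3.61% in Zeb2+/-. These ratios are built from the values that chose the family and are descriptions too.

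**Figure D2:**
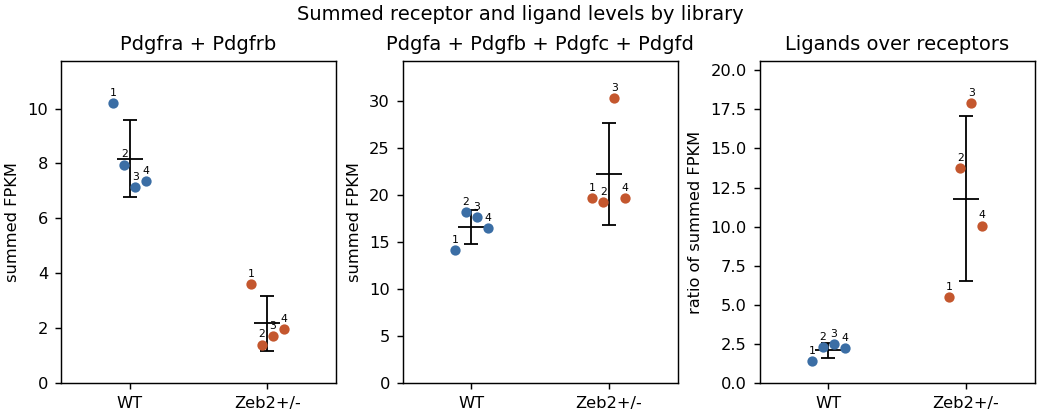
Summed FPKM of the 2 receptors (left) and of the 4 ligands (middle) and the ratio of ligands to receptors (right) in each library, with mean and SD per genotype (n = 4). The ratio runs from 1.39 to 2.47 in WT and from 5.47 to 17.9 in Zeb2+/-.

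Other genes came from 5 lists of 87 genes, named pathway lists below, of which 77 genes were tested. Of these 5 were called, all lower in Zeb2+/- (6.49%, beside 2.77% called lower over all genes), and the median log2 fold change was -0.13, beside 0.00. Of the calls, 3 were in the list of ligand-handling proteins, with 9 genes tested. The other 2 were among related receptors and their ligands, with 5 genes tested. That list lies beside PDGF signalling and is not part of it.

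Among the 10 genes for processing, matrix retention and co-receptors, 9 were tested and 3 were called lower, with a list median of -0.43. At an unadjusted p below 0.05, 4 were lower and none higher. Nrp1, neuropilin-1, a co-receptor known to bind PDGF as well as VEGF, was at 2.77, 1.92, 1.81 and 1.99 FPKM in WT and at 0.879, 0.443, 0.351 and 0.422 FPKM in Zeb2+/-. It fell by 1.04 on the log2 scale (SE 0.16, adjusted p = 0.00924), with no overlap. Pcsk6, a proprotein convertase that can cleave the A and B chains, fell from 4.41 ± 0.590 to 1.65 ± 0.550 FPKM (adjusted p = 0.00957). Plau, urokinase, known to release the active part of the D chain, fell from 2.71 ± 0.630 to 0.844 ± 0.390 FPKM (adjusted p = 0.0199). The Plau call was lost in 7 alternatives (adjusted p = 0.0511 to 0.0781), among them without WT 1, 2 or 4 and without Zeb2+/- 2. The other convertases were not called: Furin was at 14.3 ± 1.67 and 11.97 ± 4.46 FPKM (adjusted p = 0.567) and Pcsk5 at 28.2 ± 6.06 and 20.9 ± 5.24 FPKM (adjusted p = 0.324). Sparc, a matrix protein that binds the B chain, was at 33.9 ± 5.51 and 18.7 ± 8.67 FPKM (adjusted p = 0.117), with 31.5 FPKM in Zeb2+/- 1 and 12.9 to 16.8 in the other libraries of that genotype.

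The signalling proteins below the receptors showed no call. All 33 transducers were tested, none passed, and their median log2 fold change was -0.04; at an unadjusted p below 0.05, 3 were lower and 1 higher. Pik3r1, the regulatory subunit of phosphatidylinositol 3-kinase, was at 13.6 ± 1.72 and 10.2 ± 0.839 FPKM (adjusted p = 0.130), and Plcg1, phospholipase C gamma, at 3.07 ± 0.388 and 3.08 ± 0.406 FPKM. Of 17 inhibitors such as phosphatases, Sprouty proteins and ubiquitin ligases, 15 were tested and none passed (median -0.21; 4 lower and 2 higher at an unadjusted p below 0.05). Of 20 early response genes, 15 were tested and none passed (median -0.23; none at an unadjusted p below 0.05 either). Fos stood at 97.7 ± 50.1 and 65.6 ± 32.7 FPKM and Egr1 at 3.74 ± 1.72 and 2.39 ± 0.720 FPKM. Most of these genes are used by many receptors and in all cells of the tissue.

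The related class of receptors gave a divided picture. Csf1r, the macrophage colony-stimulating factor receptor, fell from 14.3 ± 1.82 to 2.64 ± 1.92 FPKM (adjusted p = 0.0127; log2 fold change -2.24, SE 0.37). Il34, a ligand of Csf1r, was at 5.65, 4.79, 5.09 and 5.85 FPKM in WT and at 1.51, 1.18, 1.11 and 1.15 FPKM in Zeb2+/-. It fell in all Zeb2+/- libraries (adjusted p = 0.000337), and the genotypes were widely apart. Csf1, the other ligand, was at 2.67 ± 0.256 and 1.23 ± 0.617 FPKM (adjusted p = 0.0696). Kit and its ligand Kitl were not called, at 1.32 ± 0.243 and 1.47 ± 0.757 FPKM for Kit (adjusted p = 0.923) and at 16.7 ± 0.998 and 16.6 ± 1.04 FPKM for Kitl (adjusted p = 0.979).

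**Figure D3:**
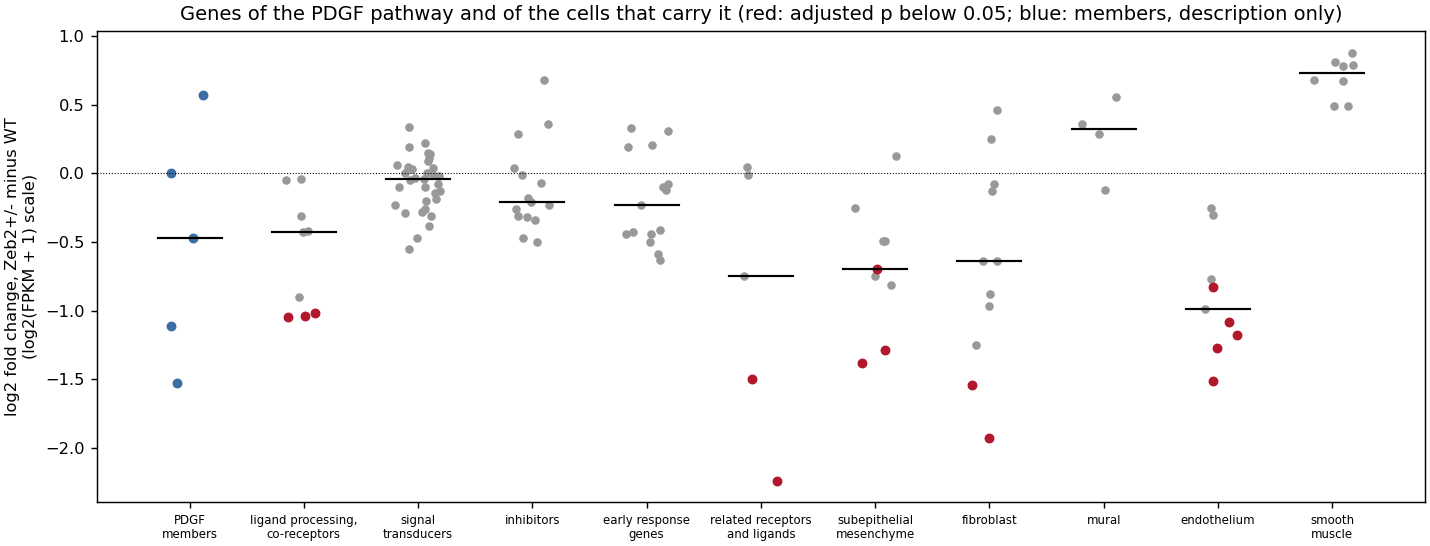
log2 fold changes (Zeb2+/- minus WT, log2(FPKM + 1) scale) of the family's 5 genes above the minimum and of the tested genes of its pathway lists and 5 marker lists, 1 point per gene, with list medians (bars). Points in red passed an adjusted p of 0.05, and blue points are the members, shown as a description. The transducers cluster around 0 (median -0.04), endothelial markers around -0.99 and smooth muscle markers around 0.73.

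Markers of cells known to carry the receptors were lower in part. In the 4 lists of such cells, 26 genes were tested and 5 were called, all lower (19.2%, beside 2.77% called lower over all genes). Over all 12 marker lists 23 of 78 tested genes were called, all lower (29.5%, median -0.46), and 18 of these 23 were pancreatic, macrophage or endothelial genes. Of the 12 markers of the Pdgfra-high mesenchyme under the villus epithelium, 9 were tested and 3 were called lower. At an unadjusted p below 0.05, 6 were lower and none higher. Bmp4 fell from 5.18 ± 0.520 to 1.55 ± 0.475 FPKM (adjusted p = 0.00174), Bmp5 from 2.04 ± 0.325 to 0.168 ± 0.117 FPKM (adjusted p = 0.00143) and Bmp7 from 1.64 ± 0.246 to 0.636 ± 0.253 FPKM (adjusted p = 0.0467). The Bmp7 call was lost in 14 alternatives (adjusted p = 0.0588 to 0.175), among them without any 1 WT library and without Zeb2+/- 1, 2 or 3. These are secreted BMP ligands that such cells are known to supply to the epithelium. Foxf1 and Foxf2, mesenchymal transcription factors, stood at 6.40 ± 1.07 against 3.44 ± 0.966 FPKM (adjusted p = 0.0711) and 4.61 ± 0.755 against 2.25 ± 0.787 FPKM (adjusted p = 0.0660). Bmp3 stood at 4.40 ± 0.166 and 4.99 ± 1.19 FPKM (adjusted p = 0.685).

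The summed level of these mesenchymal markers was 32.6 to 39.8 FPKM in WT and 19.0 to 22.3 FPKM in Zeb2+/-, 56.7% of WT. Pdgfra per unit of that sum was 0.0909 to 0.140 in WT and 0.0363 to 0.129 in Zeb2+/-, and the ranges overlapped through Zeb2+/- 1. Pdgfrb per unit of the sum was 0.0962 to 0.127 in WT and 0.0233 to 0.0551 in Zeb2+/-, without overlap. Ratios of a member to a marker sum, here and below, are built from the values that chose the family. They are descriptions only, and their separation supports nothing.

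Of 14 fibroblast markers 11 were tested and 2 were called lower. At an unadjusted p below 0.05, 7 were lower and none higher. Col14a1, a fibril-associated collagen, was at 6.62, 5.01, 4.93 and 5.08 FPKM in WT and at 0.629, 0.783, 0.680 and 0.589 FPKM in Zeb2+/-, a log2 fold change of -1.93 (SE 0.12, adjusted p = 0.000226). Col3a1, the main chain of type III collagen, fell from 27.5 ± 7.28 to 9.02 ± 3.71 FPKM (adjusted p = 0.0135), a call lost with voom and without WT 1 (adjusted p = 0.0567 to 0.0613). Other fibroblast genes did not pass, among them Col1a1 at 20.1 ± 3.97 and 8.75 ± 5.67 FPKM (adjusted p = 0.0953) and Cd81 at 48.1 ± 2.22 and 45.6 ± 6.21 FPKM (adjusted p = 0.783). The fibroblast sum was 132.6 to 181.6 FPKM in WT and 87.4 to 162.3 FPKM in Zeb2+/-, 73.5% of WT. Set against it, Pdgfra was 0.0201 to 0.0327 in WT and 0.00770 to 0.0156 in Zeb2+/-, and Pdgfrb 0.0204 to 0.0312 and 0.00594 to 0.00794. Neither ratio overlapped between genotypes. The sum leans on Cd81, the fibroblast marker of highest level, and on C3, which was at 44.3 FPKM in Zeb2+/- 1 and at most 13.2 in WT. Ratios to a sum without these genes were not tested.

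Markers of mural cells, the pericytes and vascular muscle in which Pdgfrb is best known, gave a divided picture. Of 10 genes 4 reached the minimum and none was called (none at an unadjusted p below 0.05 either), with a median of 0.32. The 6 below the minimum all had fold changes under 0, so that 7 of the 10 were negative, 2 of them without overlap. Rgs5, the pericyte marker of highest level, was at 30.54, 28.04, 29.0 and 37.25 FPKM in WT and at 81.5, 28.4, 58.9 and 33.3 FPKM in Zeb2+/- (adjusted p = 0.366). The K-ATP channel subunits Kcnj8 and Abcc9 were at 1.71 ± 0.176 and 2.48 ± 1.33 FPKM and at 1.91 ± 0.133 and 2.96 ± 1.54 FPKM. Without Zeb2+/- 1 and 3 the log2 fold changes of Rgs5, Kcnj8 and Abcc9 turned to -0.01, -0.17 and -0.08. The pair without overlap was Notch3, a receptor of arterial and pericyte identity, and Heyl, a target of Notch signalling. Notch3 was at 0.896 to 1.43 FPKM in WT and 0.223 to 0.608 FPKM in Zeb2+/- (adjusted p = 0.0706 in the fit of all genes above 0), and Heyl at 0.570 to 0.842 and 0.126 to 0.426 FPKM (adjusted p = 0.141). The mural sum, most of which is Rgs5, was 39.5 to 49.6 FPKM in WT and 99.1, 36.2, 71.2 and 41.2 FPKM in Zeb2+/-, above WT in libraries 1 and 3 only. Pdgfrb per unit of it was 0.0965 ± 0.0148 in WT and 0.0145 ± 0.00637 in Zeb2+/-, without overlap. Smooth muscle markers, some of which mural cells also express, had a median of 0.73 over 8 tested genes, with none called (6 higher at an unadjusted p below 0.05). Their sum was 972.5 and 649.8 FPKM in Zeb2+/- 1 and 3, and 388.7 and 417.3 FPKM in Zeb2+/- 2 and 4, close to the highest WT library at 400.8. Rgs5, Kcnj8 and Abcc9 were likewise highest in Zeb2+/- 1 and next in Zeb2+/- 3. How far the mural sum, by which Pdgfrb was divided, reflects muscle of the wall was not tested. Without Zeb2+/- 1 and 3 the log2 fold change of Myh11, a smooth muscle myosin, was -0.04 and that of Acta2, smooth muscle actin, 0.17. Cnn1, Actg2, Des, Mylk and Smtn were higher without overlap, as were 7.65% of all tested genes. Actg2 was at 55.3 and 55.7 FPKM in Zeb2+/- 2 and 4, against at most 49.4 in WT. The ranges of Acta2, Myh11 and Myl9 overlapped.

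**Figure D4:**
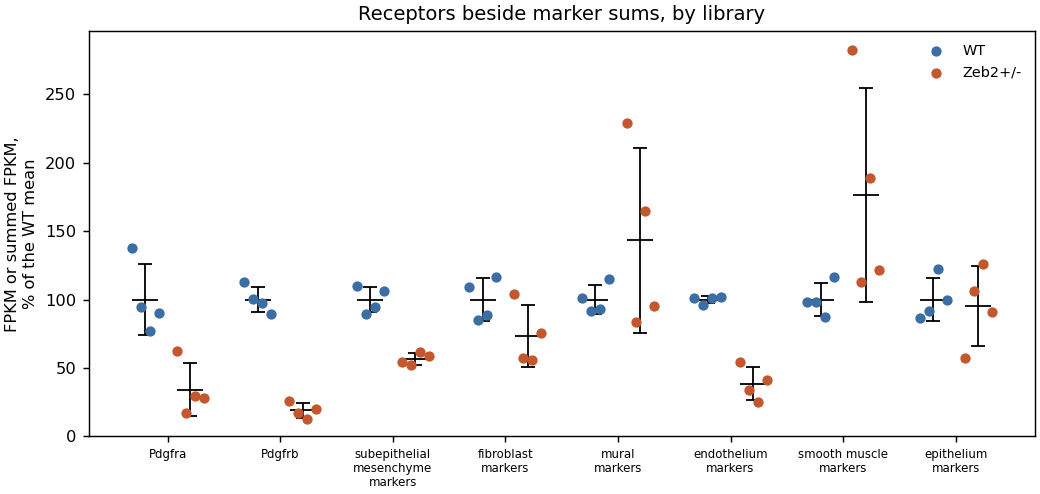
FPKM of the receptors and summed FPKM of marker lists in each library as a percentage of the WT mean, with mean and SD per genotype (n = 4). Pdgfra (34.2%) and Pdgfrb (19.0%) lie with or below the endothelial (38.6%), subepithelial (56.7%) and fibroblast (73.5%) sums, while the means of the mural (143.2%) and smooth muscle (176.4%) sums are raised by Zeb2+/- 1 and 3, with the other Zeb2+/- libraries near WT.

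Among the muscle-layer interstitial cells, another Pdgfra population, P2ry1, the purinergic receptor of their inhibitory response, was at 11.8 ± 0.656 and 12.4 ± 3.18 FPKM (adjusted p = 0.929) and Ano1, of the neighbouring cells of Cajal, at 1.36 ± 0.294 and 1.33 ± 0.681 FPKM. Neither of the 2 tested markers of that list passed. P2ry1 made up most of the list's summed level (14.3 FPKM in WT), and the cells it came from were not tested. Of the listed markers below the minimum, Kcnn3 was at 0.704 ± 0.133 and 0.523 ± 0.205 FPKM. Etv1 was at 0.35 ± 0.06 and 0.50 ± 0.20 FPKM.

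For the ligands, the sources were set beside the levels. Endothelium, a source of the B chain, had 5 of 9 tested markers called lower and none called higher, with a median of -0.99. All 9 had fold changes below 0, and 7 were lower at an unadjusted p below 0.05. Kdr, the main VEGF receptor, was at 3.55, 2.98, 3.72 and 3.45 FPKM in WT and at 0.649, 0.637, 0.362 and 0.570 FPKM in Zeb2+/- (log2 fold change -1.51, SE 0.12, adjusted p = 0.000533). Tie1, an angiopoietin receptor partner, fell from 2.84 ± 0.340 to 0.691 ± 0.144 FPKM (adjusted p = 0.00130), Eng, endoglin, from 6.26 ± 0.533 to 2.06 ± 0.717 FPKM (adjusted p = 0.00315), Cdh5, VE-cadherin, from 3.54 ± 0.651 to 1.15 ± 0.336 FPKM (adjusted p = 0.00561), and Tek by 0.83 (adjusted p = 0.0114). The endothelial sum was 38.6% of WT (29.7 to 31.6 FPKM against 7.83 to 16.7 FPKM). Pdgfb itself was at 57.2%, and per unit of the endothelial sum it was 0.0522 ± 0.00400 in WT and 0.0754 ± 0.0210 in Zeb2+/-. Zeb2+/- 1, 3 and 4 (0.0865, 0.0797 and 0.0907) lay above the WT range of 0.0481 to 0.0576, and Zeb2+/- 2 (0.0446) lay below it. Platelet genes were near the floor: Ppbp was listed at 0 in all 8 libraries, and the list summed to 1.44 to 3.13 FPKM in WT and 0.673 to 2.85 FPKM in Zeb2+/-.

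Epithelium, the main source of the A chain but not the only possible one, showed no call among 9 markers (median -0.02). At an unadjusted p below 0.05 none was lower and 1 was higher. Pdgfa was not set against the markers of other cells. Epcam stood at 702 ± 66.9 and 903 ± 211 FPKM (adjusted p = 0.410), and the epithelial sum was 95.1% of WT. Pdgfa per unit of that sum was 0.00188 to 0.00293 in WT and 0.00278 to 0.00559 in Zeb2+/-, overlapping through WT 2 and Zeb2+/- 2. Enterocyte markers showed no call either among 9 genes, with none at an unadjusted p below 0.05. Macrophages, which carry Csf1r and can make PDGF ligands, had 5 of 8 markers called lower and a sum at 26.3% of WT. At an unadjusted p below 0.05 all 8 were lower. Glial markers summed to at most 2.56 FPKM in any library and none reached the minimum. All 8 pancreatic genes were lower. The part of these cell types in the members' levels was not tested.

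The members sit on 5 chromosomes, and Pdgfra and Pdgfa share chromosome 5 at distant places. Of the 3 nearest protein-coding genes on each side of each member, 36 in all, 22 were tested, 2 were called lower and none higher, with a median of 0.03 and beside 2.77% called lower over all genes. Both were next to the receptors and already named above: Csf1r lies 20.5 kb to the right of Pdgfrb, and Kdr 735 kb to the right of Pdgfra, with Kit between at 377 kb. On the other side of Pdgfrb, at 8.95 kb, Cdx1, an intestinal homeobox gene, was at 63.4 ± 4.29 and 63.8 ± 15.6 FPKM (adjusted p = 0.966). The genes directly beside Pdgfrb thus differed in their calls.

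The genes with the most similar course over the 8 libraries were found by the root mean square difference of centred log2(FPKM + 1), among 10835 protein-coding genes. Only genes with a mean of at least 1 FPKM were compared. They were chosen for their likeness to genes that differ by genotype, so their own differences carry no test here. Nearest to Pdgfra were Itih5 (0.155), Col4a2 (0.157), Fbn1 (0.169), Lamc1 (0.186) and Nrp1 (0.190). Col4a2 and Lamc1 encode basement membrane chains and Fbn1 the microfibril protein fibrillin-1. Itih5 went from 4.89 ± 0.504 to 1.87 ± 0.690 FPKM and Lamc1 from 5.83 ± 0.616 to 2.32 ± 1.19 FPKM. Nearest to Pdgfrb were Podxl (0.0917), Npnt (0.109), Kdr (0.115), Adgrf5 (0.118) and Il34 (0.119), closer matches than Pdgfra found. Podxl and Kdr are known in endothelium, and Npnt encodes the matrix protein nephronectin. None of the mural markers was among these 5, but the 6 mural markers below the minimum could not appear there. The mural markers compared had log2 fold changes of 0.56 (Rgs5), 0.29 (Kcnj8), 0.36 (Abcc9) and -0.12 (Mcam), against -1.53 for Pdgfrb. The distance contains the genotype difference, so it cannot tell which cells a transcript came from. Podxl was at 4.30 ± 0.499 and 0.938 ± 0.302 FPKM and Npnt at 8.33 ± 1.25 and 2.01 ± 0.357 FPKM. The receptors were less near each other (0.320), Pdgfrb at rank 97 for Pdgfra and Pdgfra at rank 103 for Pdgfrb. Nearest to Pdgfa were Pet100 (0.0754), Tmem41a (0.0990), Trp53i13 (0.102), Erich4 (0.114) and Gadd45a (0.119). Gadd45a, a stress-response gene, was at 29.2 ± 3.99 and 48.9 ± 15.4 FPKM. Between ligand and receptor the distance was larger, 0.549 for Pdgfb and Pdgfrb and 0.945 for Pdgfa and Pdgfra.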

How the data were processed

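The submitters' processing notes name HISAT2 2.0.5, featureCounts 1.5.0-p3 and GRCm38 (mm10). For strand setting, annotation release and filters the sources used here give nothing. Per the labels' protocols, polyadenylated RNA was fragmented and made into directional libraries. The authors deposited FPKM per gene. Multiplied by gene length, the FPKM of a library were whole multiples of what 1 read is worth (tolerance 0.01 read, 100% of values), so reads were rebuilt; the implied totals were 0.733 to 1.16 times the rebuilt sums, an extra scale factor whose origin is not given. It rescales all genes of a library alike and is removed in the TPM alternative.

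The members and lists were chosen with earlier results of these data known. limma 3.58.1 in R 4.3.3 (lmFit, eBayes with trend and robust, two-sided) was fitted on log2(FPKM + 1) of 12190 genes averaging 1 FPKM or more, genotype as the only term. Pdgfd and Zeb2 lie below that minimum and take their fold changes from a fit of all 27850 genes above 0. FPKM are not counts, so voom on rebuilt reads served only as an alternative. Labels do not state an animal per library, so p-values reflect only how these samples vary, which may be technical. Named genes are the members and Zeb2, per list at most 4 called genes of smallest p and up to 4 abundant markers, called neighbours (at most 6), and the 5 nearest in likeness. Furin, Pcsk5, Sparc, Pik3r1, Plcg1, Fos, Egr1, Csf1, Kit, Kitl, Notch3, Heyl, Cnn1, Des, Mylk, Smtn, Tek, Cdx1, Ppbp and 6330403L08Rik were named after their values were seen. Alternatives changed the pseudocount (0.1, 5), filter (none, 5 FPKM), scaling (TPM, median of ratios, quantiles), eBayes options, weights, block, or left out libraries.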

Additional observations from a re-analysis of the deposited data

Results flagged for a closer look

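In 80 groups of 4 values examined, 5 held a library far from the other 3 (by Dixon's critical value for a gap set against the group's range), and chance alone marks about 1 group in 20. Pdgfa was at 27.4 FPKM in Zeb2+/- 3, against 15.9 to 17.2 in the other Zeb2+/- libraries (gap 0.891 of the range). The ligand sum, which Pdgfa dominates, was 30.4 FPKM in the same library against 19.2 to 19.7 (0.956). In TPM library 3 did not stand apart. Pdgfa was then at 48.4 and 49.7 in Zeb2+/- 1 and 3, and the ligand sum at 55.6 and 55.1. The sum of the processing and co-receptor genes was 216.1 FPKM in WT 3 against 166.6 to 174.9 (0.832). The endothelial sum was 29.7 FPKM in WT 2 against 31.4 to 31.6 (0.893), a gap that is small beside the difference between genotypes. The pancreatic sum was 5.97 FPKM in Zeb2+/- 4 against 0.0982 to 0.677 (0.901).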

How the results depend on the processing

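Calls over all genes numbered 395 and became 157 with a mean of at least 5 FPKM, 1187 with array weights (694 lower, 493 higher), 202 with voom, and 218 to 487 with 1 library left out. For the members, chosen on this contrast, the number past the threshold is a description that supports nothing. It was 2 of 5 tested, beside 395 of 12190 over all genes. It became 1 with pseudocount 0.1, no filter, TPM or voom. With a mean of at least 5 FPKM, which only Pdgfa reached, it was 0. With 1 library left out it was 1 to 2 (1 without any 1 WT library or Zeb2+/- 2, 3 or 4). Pathway calls (5) were 1 with the higher filter, 10 with array weights and 4 to 7 with 1 library left out. Marker calls (23) were 12 with the higher filter, 11 with voom and 20 to 30 with 1 library left out. Neighbour calls (2) were 1 with the higher filter and 2 to 2 with 1 library left out. Fewer genes are tested under the higher filter; for the other changes the cause was not tested. Zeb2 had an adjusted p of 0.0772 at -0.58 in limma and passed without trend and robust (-0.58, 0.0417), with array weights (-0.59, 0.0463) and with voom (-1.74, 0.0350); with 1 library left out it was -0.65 to -0.52. TPM scaling moved the median of all genes to -0.10. Of 29 other named genes past the threshold, 17 were past it in every alternative fitted, with 0 turned signs. Many of them were named because they were called or for likeness to a member, so these counts are a description only. With the replicate block there were 299 calls, 2 members, 5 pathway genes, 23 markers and 2 neighbours; same-numbered libraries' deviations correlated at 0.236, -0.16, 0.327 and -0.189, so the numbers were not taken to pair the samples. Pdgfd, at 1 to 17 reads in Zeb2+/-, is limited by depth.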
